A study of Mus musculus with 4 samples.

Results

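Nucleotide excision repair is described here through 40 genes, taken by gene symbol from tables of 55487 genes in 4 libraries of mouse skin cells labelled as regulatory T cells. All 40 were found, each under 1 gene identifier and at the same GRCm38 position as in GENCODE M21, and 24 of them reached 1 TPM (transcript abundance scaled to gene length and library total) in at least 2 libraries. Mice with psoriasiform dermatitis, induced with a daily 60 mg of a cream holding 5% imiquimod, received 3 exposures to narrow-band ultraviolet B (UVB) or none. The non-UVB group had 2 libraries, called N1 and N2 here after their replicate numbers, and the UVB group had 2, called U1 and U2. Imiquimod was thus given to both groups, while strain, age and sorting gates were not given in the labels. No source states that the libraries represent different animals, so the p-values reflect only how far these libraries vary, which may be technical.

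Ultraviolet B joins neighbouring pyrimidines in DNA, and nucleotide excision repair is the pathway that cuts out such lesions in mammals. Lesions are found either anywhere in the genome, by the XPC complex and the DDB1-DDB2 ubiquitin ligase, or where RNA polymerase stalls, by the transcription-coupled factors. The complex TFIIH then opens the helix, nucleases cut on both sides of the lesion, and replication proteins fill and seal the gap. TFIIH also serves transcription by RNA polymerase II, and the gap-filling proteins also serve DNA replication, so neither group is specific to repair.

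Marker levels of several cell types differed by replicate number. For macrophages and dendritic cells and for CD4 T cells, the marker sums did not overlap between the UVB and non-UVB groups. Foxp3, which defines regulatory T cells, had 0 TPM in N1, 19.4 in N2, 3.49 in U1 and 19.3 in U2. It was thus listed at 0 in N1, where other regulatory T cell markers were at 1221 TPM (Icos), 314 TPM (Ctla4), 248 TPM (Il2ra) and 203 TPM (Tnfrsf18), and Ikzf2 was at 0.0683 TPM. The 6 regulatory T cell markers, Foxp3 included, summed to 1986 TPM in N1, 4665 in N2, 1826 in U1 and 3760 in U2. These sums were lower in both libraries numbered 1, although Icos was highest in N1. Gamma-delta T cell markers, 5 found of 6, summed to 8566 TPM in N1 and 8090 in U1 but to 175 in N2 and 301 in U2. All 10 markers of macrophages and dendritic cells were found and summed to 10313 TPM in N1, 5026 in N2, 17543 in U1 and 11362 in U2, with Itgax listed at 0 in all but N1. Of these markers 9 were tested, and 9 had a higher mean with UVB (100%, background 61%), with 0 at a limma adjusted p under 0.05. The 7 keratinocyte markers summed to 223 TPM in N1, 2273 in N2, 288 in U1 and 2028 in U2. CD4 T cell markers, 7 found of 7, summed to 7009 TPM in N1, 6265 in N2, 5875 in U1 and 3937 in U2. A higher mean with UVB was seen for 1 of these 7 (14.3%, background 61%) and a lower one for 6, with 0 at a limma adjusted p under 0.05. Among the CD4 T cell markers, Cd4 had 6.02 TPM in N1, 138 in N2, 33.9 in U1 and 71.6 in U2. Cd3g, the most abundant of them, had 2560, 968, 2701 and 848 TPM in the same order. The part of these cell types in the results below was not tested, and in bulk RNA fewer cells of a type and less RNA per cell cannot be told apart. About 34100000 reads lay behind the FPKM values of N1, 24700000 behind N2, 42000000 behind U1 and 23800000 behind U2, so that 1 read on a gene of 1 kb equals between 0.0369 and 0.0612 TPM.

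Most repair genes were either abundant in every library or near 0 in some of them. At least 1 TPM was seen in all 4 libraries for 12 of the 40 members, in 3 for 5, in 2 for 7, in 1 for 7 and in none for 9. All 4 libraries thus held 30% of members against 14.6% of all protein-coding genes, and none held 22.5% against 53.9%. Among tested genes, the share in all 4 was 50% for members and 46.7% for all. The 12 were Pcna, Rfc1, Rfc2, Rfc3, Rfc4 and Pold2 of gap filling, Rad23b, Cetn2, Ddb1 and Rbx1 of lesion recognition, Rpa1 and Gtf2h5. The 9 without such a library were Xpc, Ercc3, Ercc4, Ercc6, Ercc8, Uvssa, Gtf2h1, Gtf2h4 and Lig3. Under 1 TPM in a library and at 10 TPM or more in another were 16 members. Among the 24 tested members that split held for 12, or 50%, against 42.4% of the 10286 genes tested. Exact zeros were common in these libraries also among genes that every cell uses, hence a value of 0 is reported only as listed.

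**Figure D1:**
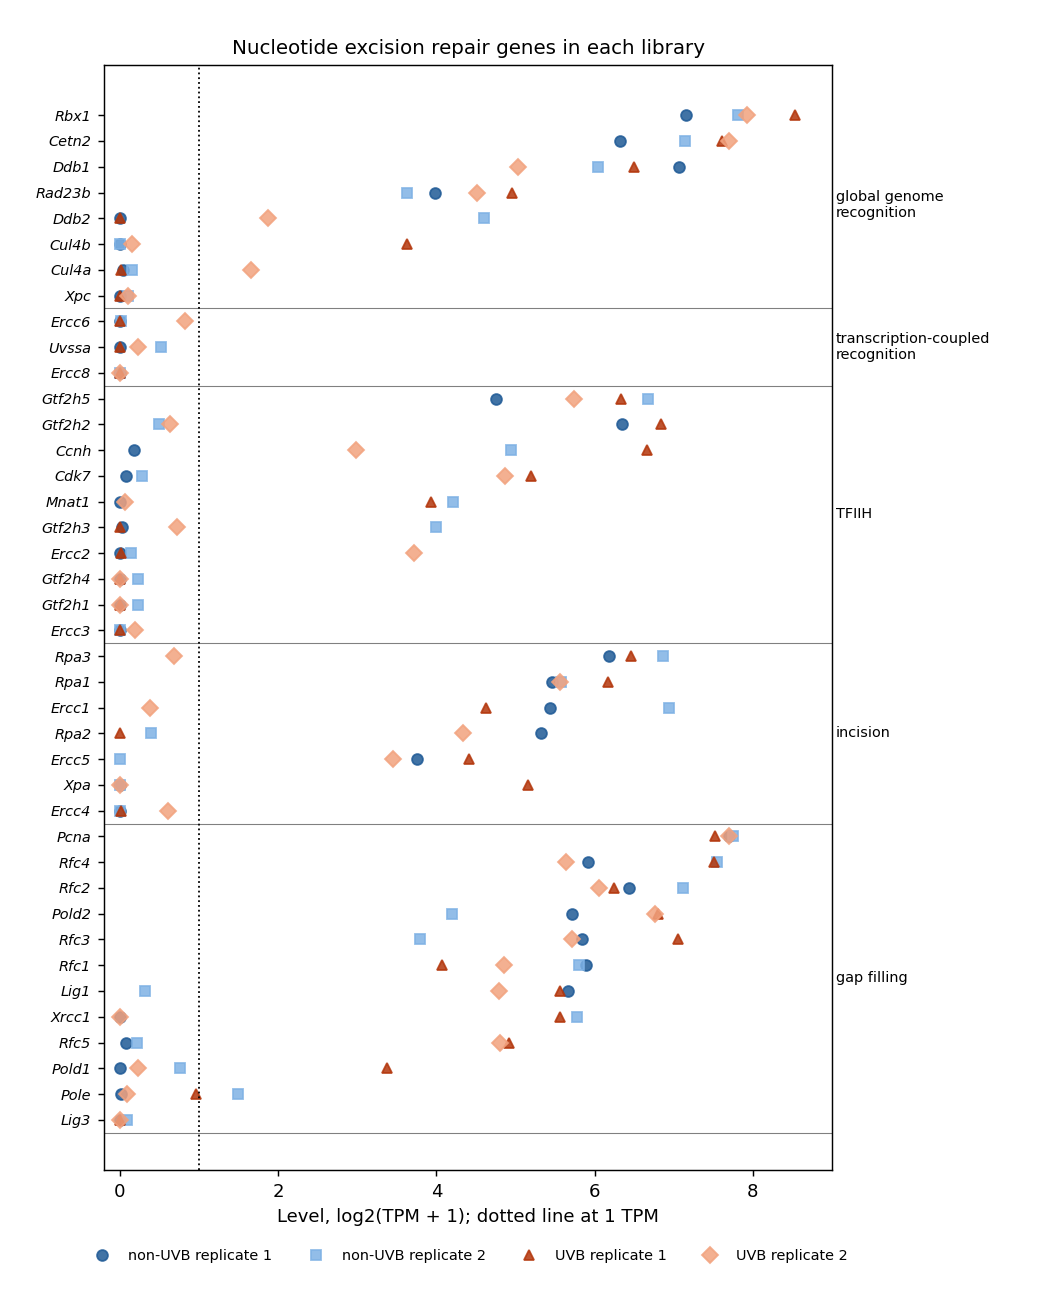
Level of each of the 40 genes in each library as log2(TPM + 1), with genes ordered by mean TPM within their role, 1 symbol per library and a dotted line at 1 TPM. Pcna lies between 183 and 214 TPM in all 4 libraries, while all transcription-coupled recognition genes lie under 1 TPM.

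Of the 40 members, 22 were under 1 TPM in N1, 20 in N2, 15 in U1 and 19 in U2. The groups did not overlap, with means of 21 ± 1.41 in non-UVB and 17 ± 2.83 in UVB (SD, n = 2 per group). An exact permutation test, two-sided, gave p = 0.333, which is the lowest value this test can give with 2 against 2 libraries, so it could not pass 0.05 whatever the values. Among all 10286 tested genes, 28.9% were under 1 TPM in N1, 27.8% in N2, 11.8% in U1 and 12.7% in U2. The shares of the 24 tested members were 25%, 25%, 8.33% and 20.8% in the same order. TFIIH held 8 of the members under 1 TPM in N1, 6 in N2, 5 in U1 and 6 in U2.

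**Figure D2:**
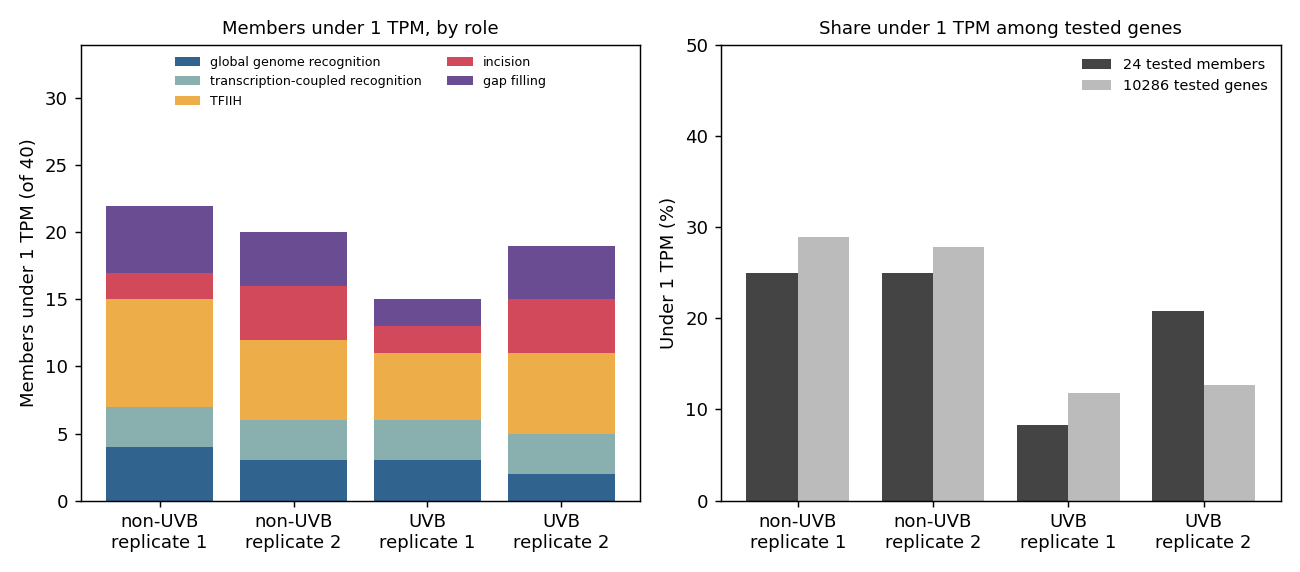
Left, number of the 40 members under 1 TPM in each library, stacked by role. Right, percentage under 1 TPM among the 24 tested members (dark) and the 10286 tested genes (light), where UVB replicate 2 is the library in which the members' share, 20.8%, lies above that of all genes, 12.7%.

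In the comparison of UVB with non-UVB libraries, no member changed at a limma adjusted p under 0.05 after Benjamini-Hochberg adjustment over 10286 genes, and no other gene did, which makes the background 0%. The lowest adjusted p of a member was 0.223, and standard errors ran from 0.40 to 3.22 on the log2(TPM + 1) scale. These are limma's moderated standard errors, which draw the spread of each gene toward a trend with level over all tested genes. At an unadjusted p under 0.05, 2 of the 24 tested members were higher with UVB (8.33%, background 9.97%) and 0 were lower (background 1.37%), together 8.33% against 11.3% of all tested genes. A gene is called separated here where both libraries of a group lay above both of the other and the means differed by at least 1 log2. By that rule 3 members were higher (12.5%, background 18.1%) and 2 were lower (8.33%, background 6.47%), together 20.8% against 24.5%. These shares lie near the background and are no result about repair genes. Of the tested members 13 had a higher mean with UVB (54.2%, background 61%). Scaling changed that split, since 12 members and 44.9% of all tested genes had a higher mean after quantile normalization, and 10 members and 38.6% under scaling to the library median. The median difference was 0.32 over the 24 tested members, 0.26 over all tested genes and 0.20 over all 40 members. For the tested members it was 0.10 after quantile normalization and -0.29 under median scaling, which put the median of all tested genes at -0.19 and -0.35. Of all 40 members, 21 had a higher mean, 18 a lower one and 1 was listed at 0 throughout.

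The members separated upward were Cdk7, Rfc5 and Pold2. Cdk7, the kinase of TFIIH, had 0.0539 TPM in N1, 0.216 in N2, 35.7 in U1 and 28.3 in U2. Rfc5, a subunit of the clamp loader RFC, had 0.0543 TPM in N1, 0.161 in N2, 29.1 in U1 and 27 in U2. Both genes were near 0 in both non-UVB libraries and near 30 TPM in both UVB libraries, and both passed the filter on low values only through the UVB libraries. UVB minus non-UVB came to 4.86 ± 1.0 for Cdk7 and 4.71 ± 0.96 for Rfc5 on the log2(TPM + 1) scale. Each is given with its moderated limma standard error (SE, 2 libraries a group) and had a limma adjusted p of 0.223. The pattern of at least 1 TPM in U1 and U2 and under it in N1 and N2 was shown by 10.1% of all tested genes and 8.33% of the tested members, and the opposite pattern by 1.22% and by 0 members. Exons of Rfc5 share 499 bases with Wsb2 on the opposite strand, which had 45.9 TPM in N1, 0.463 in N2, 25.6 in U1 and 116 in U2, and no source used here gives the strandedness of the libraries.

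Pold2, the accessory subunit of DNA polymerase delta, had 51.6 TPM in N1, 17.4 in N2, 110.1 in U1 and 108 in U2. The UVB libraries lay close together and above both others, by 1.82 ± 0.79 log2 (limma adjusted p = 0.602), which was 1.06 without N2. In the opposite direction, Rfc1, the large subunit of RFC, had 58.5 TPM in N1, 55.0 in N2, 15.9 in U1 and 27.9 in U2. Its groups did not overlap, and the difference was -1.39 ± 0.74 log2 (limma adjusted p = 0.755). Ercc1, the partner of the nuclease XPF, had 42.5 TPM in N1, 122 in N2, 23.7 in U1 and 0.303 in U2. Its difference of -3.69 ± 1.83 log2 (limma adjusted p = 0.699) was -1.56 without U2, the library in which it was near 0.

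**Figure D3:**
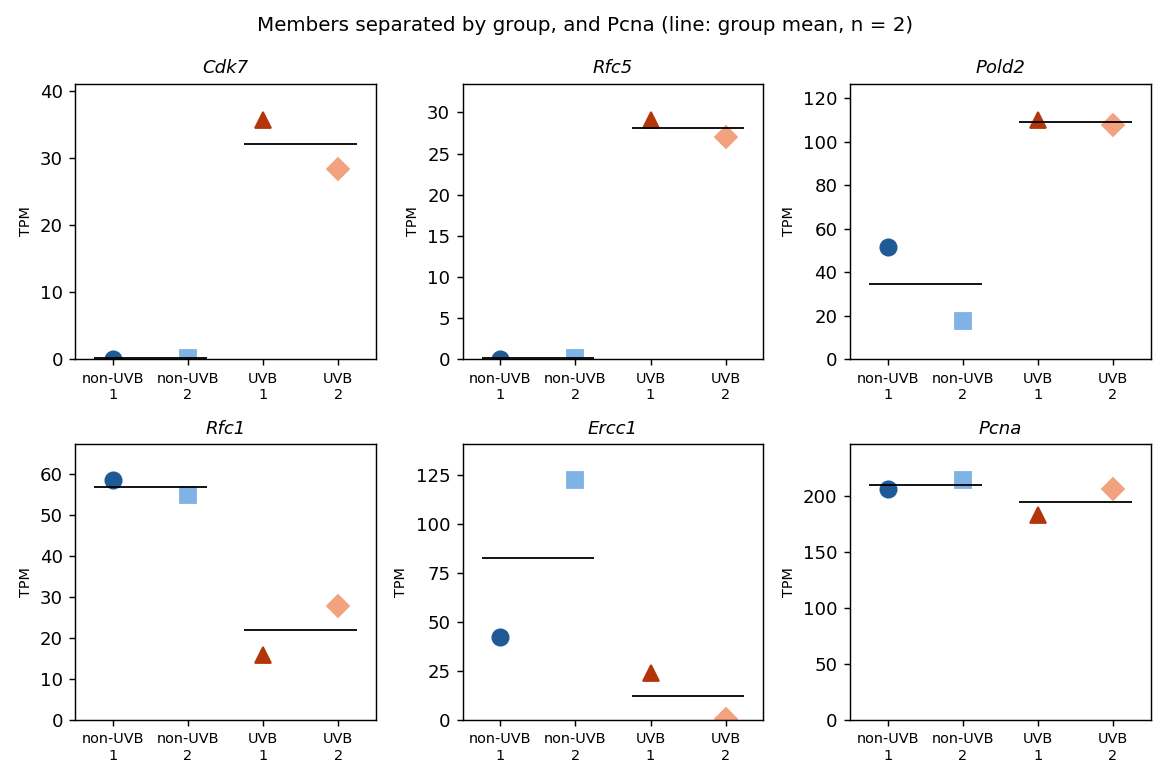
TPM in each library of the 5 members separated by group and of Pcna, with the y axis from 0 and a line at each group mean (n = 2). Cdk7 and Rfc5 are near 0 in both non-UVB libraries, whereas Pcna lies between 183 and 214 TPM.

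The stretches before the annotated starts of Cdk7, Rfc5, Pold2 and Rfc1 are shown because these are 4 of the 5 members whose groups were separated. They are the 250 bases before the RefSeq start (GRCm38.p6), all on the minus strand, at chr13:100730943-100731192 for Cdk7, chr5:117389024-117389273 for Rfc5, chr11:5878257-5878506 for Pold2 and chr5:65335640-65335889 for Rfc1. Capitals mark a CCAAT box, searched as CCAAT on both strands.
Cdk7: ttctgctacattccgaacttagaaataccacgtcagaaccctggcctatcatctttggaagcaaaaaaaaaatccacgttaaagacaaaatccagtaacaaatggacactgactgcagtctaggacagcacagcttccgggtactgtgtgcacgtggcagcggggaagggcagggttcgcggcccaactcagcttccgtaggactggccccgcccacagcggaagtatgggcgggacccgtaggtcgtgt
Rfc5: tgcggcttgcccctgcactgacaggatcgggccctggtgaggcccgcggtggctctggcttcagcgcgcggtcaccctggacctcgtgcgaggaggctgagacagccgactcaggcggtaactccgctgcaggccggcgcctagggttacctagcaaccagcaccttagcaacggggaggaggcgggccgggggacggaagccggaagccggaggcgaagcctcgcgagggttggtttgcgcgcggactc
Pold2: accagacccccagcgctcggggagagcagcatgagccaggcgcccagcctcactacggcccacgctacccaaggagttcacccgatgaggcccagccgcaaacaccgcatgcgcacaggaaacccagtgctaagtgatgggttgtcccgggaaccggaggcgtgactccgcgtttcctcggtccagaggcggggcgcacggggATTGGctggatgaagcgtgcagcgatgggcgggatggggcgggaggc
Rfc1: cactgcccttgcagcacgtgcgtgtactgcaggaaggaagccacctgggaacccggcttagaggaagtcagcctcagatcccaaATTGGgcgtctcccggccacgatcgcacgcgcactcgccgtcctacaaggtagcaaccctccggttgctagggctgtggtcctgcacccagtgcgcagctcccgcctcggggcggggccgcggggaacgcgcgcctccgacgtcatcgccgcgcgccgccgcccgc
The CCAAT box lies in the windows shown for Pold2 and Rfc1, and its letters are not in those of Cdk7 and Rfc5, nor in the window of another RefSeq start of Pold2 at chr11:5877664-5877913. The window of Ercc1, the other separated member, at chr7:19344821-19345070 on the plus strand, is not shown and held 0 matches. The CCAAT box was found in 18 of the 38 windows of the 34 members with a RefSeq entry, or 47.4%, and in 33.8% of all 32851 windows of that length. An E2F motif, searched on both strands as TTTGGCGC, TTTCGCGC, TTTGCCGC and TTTCCCGC, was in the windows of Rbx1 and Rfc3, which is 5.26% of member windows against 1.86% of all. The ETS motif CCGGAAGT, also searched on both strands, was in those of Gtf2h2, Rfc3, Rfc4, Rpa2 and Rpa3, or 13.2% against 2.88%. None of the matches is shown to be a binding site.

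Damage recognition in the whole genome held the most abundant member and several at or near 0. Rbx1, the RING subunit that recruits the ubiquitin-conjugating enzyme to cullin ligases, had 141 TPM in N1, 224 in N2, 369 in U1 and 243 in U2. Cetn2, the centrin that binds XPC, had 79.1 TPM in N1, 140.4 in N2, 195 in U1 and 206 in U2. Rad23b, which stabilises XPC, had 14.8 TPM in N1, 11.4 in N2, 29.9 in U1 and 21.9 in U2. In these 3 genes both UVB libraries lay above both non-UVB libraries, by 0.75 ± 0.50, 0.92 ± 0.52 and 0.93 ± 0.91 log2, with limma adjusted p values of 0.884, 0.795 and 0.993. Counting gaps of any size, 6 of 24 tested members were separated upward (25%, background 23.2%) and 4 downward (16.7%, background 9.71%), together 41.7% against 32.9%. Xpc, the lesion sensor itself, had 0 TPM in N1, 0.0750 in N2, 0 in U1 and 0.0706 in U2. The sensor was thus at or near 0 in every library, while its partners Cetn2 and Rad23b had 11.4 TPM or more in each.

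The ultraviolet-damaged DNA binding complex was also uneven. Ddb1, the adaptor that links the complex to the ligase, had 133 TPM in N1, 65.0 in N2, 89.7 in U1 and 31.6 in U2. It was lower with UVB within each replicate number, but the groups overlapped, and the difference was -0.79 ± 0.84 log2, which was -0.05 without U2, -0.28 without N1, -1.30 without N2 and -1.53 without U1. Ddb2, which contacts the lesion and is known as a p53 target in human cells, had 0 TPM in N1, 23.2 in N2, 0 in U1 and 2.67 in U2. It was listed at 0 in both libraries numbered 1, and its exons share 652 bases (23.8% of its exonic length) with Acp2 on the opposite strand. Acp2 had 65.0 TPM in N1, 0.581 in N2, 31.0 in U1 and 4.91 in U2. The cullin scaffold Cul4a was under 1 TPM except for 2.16 TPM in U2. Its relative Cul4b was at 11.3 TPM in U1, at 0.109 in U2 and listed at 0 in N1 and N2.

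Transcription-coupled recognition was the role with the lowest levels, and none of its 3 members entered the test. Ercc6, the ATPase CSB that binds stalled polymerase, had 0.00105 TPM in N1, 0.00829 in N2, 0 in U1 and 0.767 in U2. Ercc8, the ligase subunit CSA, was listed at 0 in all 4 libraries. Uvssa, which brings TFIIH to the stalled polymerase, reached 0.438 TPM in N2 and 0.174 in U2 and was listed at 0 in the libraries numbered 1.

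In TFIIH, the core subunits were measured very unevenly. Gtf2h5, the smallest core subunit, was the one at 1 TPM or more throughout, with 25.9 TPM in N1, 101 in N2, 79.6 in U1 and 52.4 in U2. Gtf2h2, the p44 subunit, had 80.5 TPM in N1, 0.408 in N2, 113 in U1 and 0.553 in U2. It was high in both libraries numbered 1 and near 0 in both numbered 2, with a difference of 0.32 ± 3.22 log2 between UVB and non-UVB. Gtf2h3 was at 14.9 TPM in N2 and under 1 TPM in the other libraries. Ercc2, the helicase XPD, was at 12.2 TPM in U2 and at most 0.104 TPM elsewhere. Exons of Ercc2 share 744 bases with Klc3 on the opposite strand, and Klc3 had 0 TPM in N1, 0 in N2, 14 in U1 and 27 in U2. Ercc3, the ATPase XPB, reached no more than 0.138 TPM, Gtf2h1 no more than 0.172 TPM and Gtf2h4 no more than 0.177 TPM. In each library 2 of the 7 core subunits were at 1 TPM or more.

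The other subunits of the TFIIH kinase module did not share the pattern of Cdk7. Ccnh, its cyclin, had 0.136 TPM in N1, 29.7 in N2, 100.4 in U1 and 6.91 in U2. Mnat1, the assembly factor MAT1, had 0 TPM in N1, 17.6 in N2, 14.3 in U1 and 0.0452 in U2. Both were higher with UVB in the libraries numbered 1, by 6.48 and 3.93 log2, and lower in those numbered 2, by -1.96 and -4.15 log2. At 1 TPM or more were all 3 subunits of the module in U1, 2 in each of N2 and U2, and 0 in N1.

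Incision involves the scaffold XPA, the single-strand binding protein RPA and a pair of nucleases. Xpa was at 34.7 TPM in U1 and listed at 0 in the other libraries, so its mean difference rests on U1. Rpa1, the large RPA subunit, had 43.0 TPM in N1, 46.8 in N2, 71.0 in U1 and 46.1 in U2, and the groups overlapped. Rpa3, the small subunit, had 71.5 TPM in N1, 115 in N2, 86.7 in U1 and 0.604 in U2. Rpa2, the middle subunit, had 38.9 TPM in N1, 0.318 in N2, 0 in U1 and 19.1 in U2. A subunit of this obligate trimer was thus under 1 TPM in every library except N1. Ercc5, the nuclease XPG that cuts on the 3' side, had 12.4 TPM in N1, 0 in N2, 20.2 in U1 and 9.97 in U2. Ercc4, which encodes XPF, the catalytic partner of Ercc1, lay at or under 0.524 TPM in every library.

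Gap filling held both even and uneven genes. Pcna, the sliding clamp, had 206 TPM in N1, 214 in N2, 183 in U1 and 206 in U2. Its difference was -0.11 ± 0.40 log2, with the smallest moderated standard error of the 24 tested members, which also depends on the level of the gene. Its copy Pcna-ps2 had 34.3 to 45.7 TPM, so the division of reads between the copies is uncertain. Of the clamp loader, Rfc2 had 85.3 TPM in N1, 137 in N2, 75.2 in U1 and 65.4 in U2. Both UVB libraries were below both others, but by only -0.62 ± 0.56 log2. Rfc3 had 56.1 TPM in N1, 12.9 in N2, 132 in U1 and 51.4 in U2, higher with UVB within each number although the groups overlapped. Rfc4 had 59.3 TPM in N1, 185 in N2, 181 in U1 and 48.7 in U2, with opposite signs in the replicate numbers. On the opposite strand, exons of Rfc2 share 952 bases (15.1% of its exonic length) with Lat2 and those of Rfc4 share 194 bases (12.7%) with Eif4a2. Without strand, reads on the shared bases cannot be told apart. Together with Rfc1 and Rfc5, the 5 subunits of RFC, which acts as a pentamer, had mean differences between -1.39 and 4.71 log2.

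The polymerases and ligases were less regular. Pold1, the catalytic subunit of polymerase delta, reached 9.37 TPM in U1 and at most 0.699 TPM elsewhere, and Pole, that of polymerase epsilon, reached at most 1.81 TPM, in N2. Lig1, the main replicative ligase, had 49.9 TPM in N1, 0.244 in N2, 46.2 in U1 and 26.8 in U2. Xrcc1, the scaffold for ligase III, had 0 TPM in N1, 53.9 in N2, 46.3 in U1 and 0 in U2. It was thus at about 50 TPM in a library of each group and listed at 0 in the other. Lig3 itself reached no more than 0.0670 TPM. Gap-filling members summed to 567 TPM in N1, 679 in N2, 829 in U1 and 561 in U2, and 20 other replication and proliferation genes to 1028, 1083, 1630 and 831 TPM. Both sums were highest in U1 and lowest in U2, and the part of dividing cells in the members' levels was not tested.

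**Figure D4:**
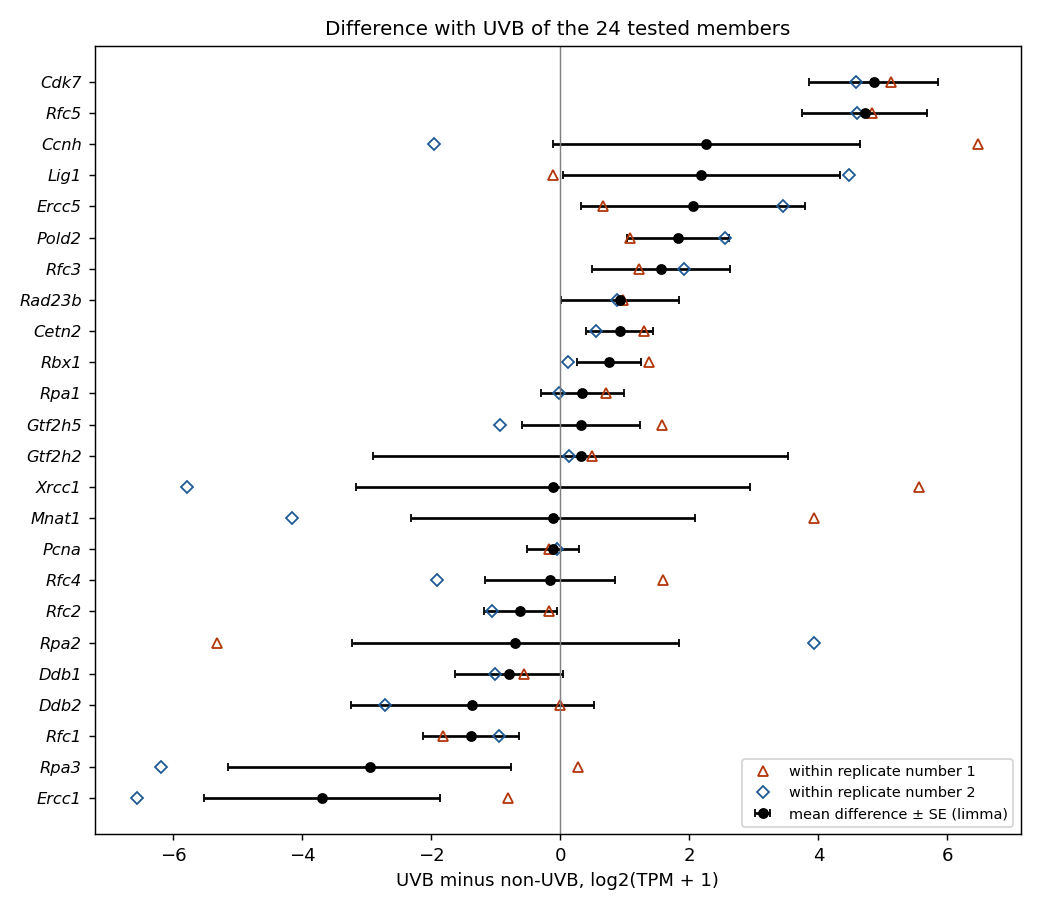
UVB minus non-UVB on the log2(TPM + 1) scale for the 24 tested members, as the mean difference ± SE from limma (black) and within each replicate number (open symbols). Cdk7 and Rfc5 lie between 4.59 and 5.12 in both numbers, whereas Ccnh, Xrcc1, Mnat1 and Rpa2 lie on opposite sides of 0.

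By role, the median difference of tested members was 0.75 log2 in global genome recognition (5 of 8 tested), 0.32 in TFIIH (5 of 10), -0.69 in incision (5 of 7) and -0.11 in gap filling (9 of 12), beside 0.26 over all tested genes. Within the libraries numbered 1 the median of tested members was 0.84 against 0.27 for all tested genes, and within those numbered 2 it was -0.04 against 0.16. Of the 24, 9 were higher with UVB within both numbers (37.5%, background 34%), 5 were lower within both (20.8%, background 17.7%) and 9 had opposite signs. Leaving out 1 library at a time gave medians of 0.42 to 0.94 for global genome recognition, -2.61 (without N2) to 0.28 (without N1) for incision, -0.14 (without N1) to 1.84 (without U2) for gap filling, and -0.12 (without N1) to 3.42 (without U2) for TFIIH.

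The levels were also set beside gene length, which the choice of members did not use. Annotated exonic length had a median of 6730 bases in the 9 members without a library at 1 TPM and of 4203 bases in the 12 with all 4. The ranges overlapped, from 2835 to 12851 bases and from 1533 to 6409 bases. Over all protein-coding genes these medians were 2887 and 3513 bases, in the other order. With 1, 2 and 3 libraries at 1 TPM they were 4710, 4669 and 4473.5 bases. Among protein-coding genes with any such library, the median thus fell as the number of libraries rose. The longest exonic lengths belonged to Ercc6 and Pole, both with a mean under 1 TPM, and the shortest, 1136 bases, belonged to Rpa3.

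**Figure D5:**
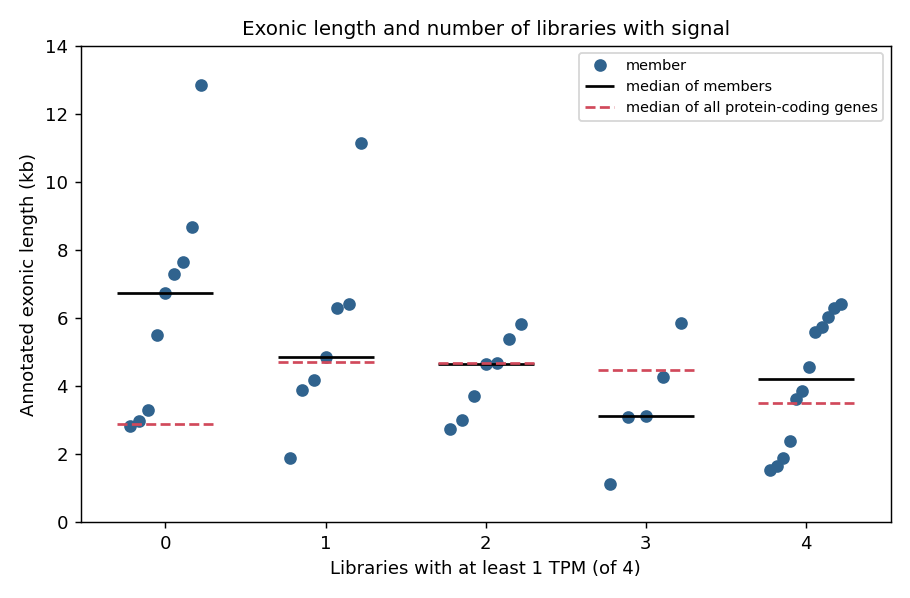
Annotated exonic length in kb of the 40 members by the number of libraries with at least 1 TPM, with the members' median (solid) and that of all protein-coding genes (dashed). Members under 1 TPM in every library have the highest median, 6730 bases, and overlap in length with the others.

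Of 31 other genes of the pathway and its regulators, 27 were tested and 0 passed at a limma adjusted p under 0.05. Means were higher with UVB for 19 (70.4%, background 61%) and lower for 8, with a median of 1.03 log2. Separated upward were 6 of the 27 (background 18.1%), Cops4, Cops6, Pole4, Parp2, Polk and Ppie, and downward 2 (background 6.47%), Cops7a and Dda1. Cops6, a subunit of the COP9 signalosome that removes NEDD8 from cullins, had 93.8 TPM in N1, 107 in N2, 314 in U1 and 281 in U2. Its difference was 1.56 ± 0.42 log2 (limma adjusted p = 0.265). Cops7a, another subunit, had 50.4 TPM in N1, 152 in N2, 21.0 in U1 and 44.7 in U2, so subunits of that complex lay on both sides. Hmgn1, a nucleosome-binding protein, had 59.2 TPM in N1, 242 in N2, 162 in U1 and 372 in U2, and its groups overlapped.

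Lesion bypass, which copies DNA past unrepaired lesions, was covered by 9 genes, of which 5 were tested. Means were higher with UVB for 4 of the 5 (80%, background 61%), with a median of 1.29 log2. Polh, the polymerase that reads accurately across pyrimidine dimers, lay at or under 0.0422 TPM in all 4 libraries. Rad18, the ligase that ubiquitinates PCNA, had 0.0349 TPM in N1, 0.270 in N2, 22.5 in U1 and 48.8 in U2. It passed the filter on low values only through the UVB libraries, and its difference was 4.90 ± 1.08 log2 (limma adjusted p = 0.223). Ube2b, a partner of Rad18, had 302 TPM in N1, 148 in N2, 190.4 in U1 and 274 in U2. Ube2a, the other partner, had 116 TPM in N1, 57.8 in N2, 182 in U1 and 223 in U2, and it was separated upward by 1.29 ± 0.58 log2 (limma adjusted p = 0.63). Rad18 and Ube2a were thus the 2 of 5 tested genes separated upward (background 18.1%), and 0 were separated downward (background 6.47%).

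Targets of p53, which responds to DNA damage, numbered 14 among the tested genes, 10 of them with a higher UVB mean (71.4%, background 61%), at a median of 0.76 log2, and 0 passed the adjusted threshold. Fas and Ccng1 were separated upward (background 18.1%), by 5.23 ± 1.32 and 3.28 ± 1.64 log2, and Btg2 and Bbc3 downward (background 6.47%), by -1.57 ± 0.43 and -1.38 ± 1.05 log2, with limma adjusted p values from 0.239 to 0.942, and Fas passed the filter on low values only through the UVB libraries. Bax, a death effector, had 282 TPM in N1, 445 in N2, 667 in U1 and 533 in U2. Cdkn1a, the cell cycle inhibitor p21, had 529 TPM in N1, 169 in N2, 379 in U1 and 644 in U2, and its groups overlapped. Replication and proliferation genes had a higher UVB mean in 13 of 19 tested (68.4%, background 61%), at a median of 0.83 log2, again with 0 past the threshold. Cdt1, Ccnb1 and Mki67 were separated upward (background 18.1%), by 4.6 ± 1.2, 3.21 ± 1.98 and 2.39 ± 0.98 log2, and Gins2 downward (background 6.47%), by -2.06 ± 1.05 log2, with limma adjusted p values from 0.239 to 0.844. Birc5, an inhibitor of apoptosis needed for cell division, had 139 TPM in N1, 116 in N2, 216 in U1 and 129.8 in U2. Mcm3, of the replicative helicase, had 160.1 TPM in N1, 149.6 in N2, 227 in U1 and 34.5 in U2.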

How the data were processed

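RNA was measured in 4 libraries, made per the labels' protocols from total RNA with an ultra-low-input kit and read as 100 bp single ends. HISAT2, StringTie and DESeq2 with GRCm38 (mm10) are named in the submitters' processing notes without versions or roles. Per the file headers, the authors deposited TPM, FPKM and coverage per gene. Deposited TPM sums to 1000000 per library, deposited FPKM is scaled to length and a library total, and deposited coverage is the mean depth per base, used here only to estimate depth. The files hold no read counts, so no counting interval is given.

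Rows of a gene ID were summed. Genes with at least 1 TPM in 2 of 4 libraries were tested as log2(TPM + 1), which understates changes of low genes, with limma 3.58.1 in R 4.3.3, an intensity trend, group as the only term and Benjamini-Hochberg adjustment at 0.05. Members and lists were chosen with earlier results of these data known. Every member is reported, with full values for separated, uneven, abundant and lesion-sensing members, and of other lists the 2 most abundant genes and separated genes. Polh, Foxp3, Icos, Il2ra, Ikzf2, Itgax and Cd4 were chosen by role or after their values were seen. Rad6 and Tcrg-V6 were not found by those names. Exonic lengths came from GENCODE M21, and exons of 13 members overlap another gene. Promoter windows came from RefSeq (GRCm38.p6). Alternatives changed the pseudocount to 0.1 or 5, the filter, unit, scaling, TPM total and spread model, fitted the replicate number as a block, and dropped 1 library at a time.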

Additional observations from a re-analysis of the deposited data

How the results depend on the processing

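In every alternative 0 genes had a limma adjusted p under 0.05. Cdk7, Rfc5 and Pold2 were higher with UVB in every alternative, and Rfc1 and Ercc1 lower, with limma adjusted p of 0.136 to 0.788 for Cdk7 and Rfc5. These genes were picked because their groups did not overlap. Dropping a library, changing the pseudocount or fitting a block could therefore not reverse their signs, which lend no weight to the differences. The share of all genes separated by group was not counted in the alternatives, so the members' counts there are no result about repair genes. Members separated by group numbered 8 under median scaling and 7 to 14 with 1 library left out, where fewer libraries make separation easier. Genes at an unadjusted p under 0.05 then numbered 1065 to 1344. Median scaling subtracts the same value from every gene of a library, and so shifts the differences of all genes alike. By that shift it put Gtf2h2 at -0.29, Gtf2h5 at -0.28 and Rpa1 at -0.26, each a changed sign. Quantile normalization put Gtf2h2 at -0.18 and a pseudocount of 0.1 put Mnat1 at 0.12, also changed signs, whose cause was not tested. The median of all tested genes, 0.26 as measured, was -0.19 after quantile normalization and -0.35 under median scaling, so signs under these scalings are relative to those shifts. Members with a higher mean were 21 of 39 without a filter. Median scaling also put the median of the members at -0.29 and that of TFIIH at -0.28, both with changed sign. The incision median was -1.54 with a pseudocount of 0.1, 0.31 without a filter and -1.30 under median scaling, and that of gap filling 0.65 with a filter on the mean and -0.71 under median scaling. With 1 library left out, medians ran from -2.61 to 0.28 for incision, from -0.14 to 1.84 for gap filling and from -0.12 to 3.42 for TFIIH. Members whose sign then changed ran from -0.64 to 1.28 for Gtf2h5, -0.12 to 4.64 for Ccnh, -3.15 to 1.77 for Rpa2, -3.66 to 0.94 for Ddb2, -2.79 to 3.42 for Gtf2h2, -2.22 to 2.0 for Mnat1, -1.09 to 0.78 for Rfc4, -0.49 to 4.86 for Lig1, and -3.00 to 2.78 for Xrcc1. Labels share replicate numbers, but no source ties them to an animal or day, and same-numbered libraries deviated together at r = 0.165 over 10286 genes. With the replicate number as a block, 0 genes passed the adjusted threshold, 1110 had an unadjusted p under 0.05, and Cdk7 and Rfc5 had a limma adjusted p of 0.342. No transcription-coupled gene was tested, so that median could not be varied, and members under 1 TPM were not counted after quantile normalization.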
